A study of Capra hircus with 6 samples.

Results

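The AP-1 and EGR immediate early factors are transcription factor genes, many of them switched on within minutes of a stimulus, before any new protein is made. The genes were listed by symbol as FOS, FOSB, FOSL1 and FOSL2 of the FOS family, JUN, JUNB and JUND of the JUN family, and EGR1, EGR2 and EGR3 of the EGR family, and all 10 were found among the 16285 genes of the deposited tables. RNA had been sequenced from adipose mesenchymal stem cells of the goat (Capra hircus), which are fat-derived stromal cells able to turn into adipocytes when induced. There were 3 libraries labelled as overexpressing YAP and 3 Control libraries labelled wild type (WT), and adipogenic differentiation was recorded as the treatment of both groups. The labels gave no vector, promoter, clone or time of treatment, marked no sample as an empty-vector control, and left unsaid whether replicates were separate cultures or animals. The p-values below therefore measure only how far these samples spread, and that spread may be technical. The study's design text speaks of cells overexpressing TAZ (gene WWTR1), a relative of YAP, whereas the sample labels name YAP, and the sample labels were followed here.

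FOS and JUN proteins pair through a leucine zipper to form AP-1, which binds a short palindromic DNA site. JUN proteins can pair with themselves, whereas FOS proteins need a JUN or related partner. AP-1 sites lie beside those of the TEAD factors in many enhancers that YAP and TAZ act on, through the TEADs. EGR proteins are zinc finger factors that bind GC-rich sites. Their genes and FOS are classic targets of serum response factor (SRF) and of its ternary complex partners, which the ERK MAP kinases phosphorylate. In cultured preadipocytes EGR2 (Krox20) is known as an early activator of adipogenesis.

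Levels are given in FPKM, fragments counted per kilobase of a gene and adjusted for library depth, and changes as log2 changes of FPKM + 1, YAP label minus Control, which understate the change of low genes. Whole reads recovered from the values gave 32593380 to 37131015 counted fragments per library. YAP1, the gene named in the labels, had 28.4, 25.6 and 28.2 FPKM in the libraries labelled YAP, against 25.8, 27.0 and 28.9 FPKM in Control libraries (log2 change 0.01, SE 0.08, limma adjusted p = 0.95). The YAP1 transcript was therefore not measurably raised. WWTR1, the gene of TAZ in the design text, was not raised either. It had 21.4 ± 1.98 FPKM in the libraries labelled YAP against 32.0 ± 3.38 FPKM in Control libraries (SD, limma adjusted p = 0.0013). Each direction below is that of the labelled group. The groups came from separate tables, so table and group cannot be told apart. The table with the libraries labelled YAP also held columns named for TAZ and for pcDNA, a name used for plasmid expression vectors, which match no sample and were not used. Any part of vector or transfection in the differences below was not tested. Stromal markers such as COL1A1 and DCN were abundant in every library, with a summed level of 9181 to 9402 FPKM over 7 markers in the libraries labelled YAP and 5549 to 5955 FPKM in Control libraries. COL1A1 and DCN carried this sum, and the markers did not move one way. ENG had 76.8 to 86.4 FPKM in the libraries labelled YAP against 138 to 167 FPKM in Control libraries, and NT5E 121 to 134 FPKM in the libraries labelled YAP against 161 to 182 FPKM in Control libraries. THY1 and PDGFRB were higher without overlap in the libraries labelled YAP, and PDGFRA overlapped. The 5 adipocyte markers in the files, among them PPARG, ADIPOQ and LPL, had at most 27 reads each in any library, in spite of the label for adipogenic treatment. Of 6 leukocyte markers, AIF1 was at 0, 4 others had at most 32 reads and CD68 had up to 289. Their summed level was 1.98 to 2.58 FPKM in the libraries labelled YAP and 4.77 to 5.51 FPKM in Control libraries. CD68 carried most of this sum, at 1.72 to 2.26 FPKM in the libraries labelled YAP and 4.04 to 4.87 FPKM in Control libraries. The sum therefore reflects mainly 1 gene. The 4 endothelial and 3 epithelial markers had at most 51 reads. The part of these shifts in the results below was not tested, and in bulk RNA fewer cells of a type and less RNA per cell cannot be told apart.

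Of the 10 members, EGR1 and EGR2 rose in the libraries labelled YAP, EGR3, FOSB and JUN fell, and FOS, FOSL1, FOSL2, JUNB and JUND did not pass the threshold of adjusted p = 0.05. Among all 10761 genes tested, 35.9% passed it, 12.9% higher and 23.0% lower, against 5 of 10 members here. As deposited, the values of the groups did not overlap for the same 5 members, 2 higher and 3 lower. The same held for 48.3% of all tested genes, 16.7% higher and 31.6% lower. The median log2 change of the members was -0.08, and that of all tested genes -0.10. After median-of-ratios scaling, which corrects for differences in composition between libraries, 3 members were higher (EGR1, EGR2 and JUNB) and 2 lower (EGR3 and FOSB), where 29.8% of all tested genes passed, 15.8% higher and 14.0% lower. Calls were thus frequent in this comparison, at 35.9% of all tested genes against 5 of 10 members, a difference that was not tested. By the other measure, values without overlap, 5 of 10 members lay near the 48.3% of all tested genes. All 10 passed the filter of at least 1 FPKM in at least 3 libraries, but EGR3 passed it through the Control libraries alone. Permuting the libraries exactly, a two-sided test whose p cannot go below 0.1 with 3 against 3, gave p = 0.1 for each of the 5 called members, 0.2 for FOS, 0.3 for JUNB, 0.6 for FOSL2, 0.8 for JUND and 1 for FOSL1.

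**Figure D1:**
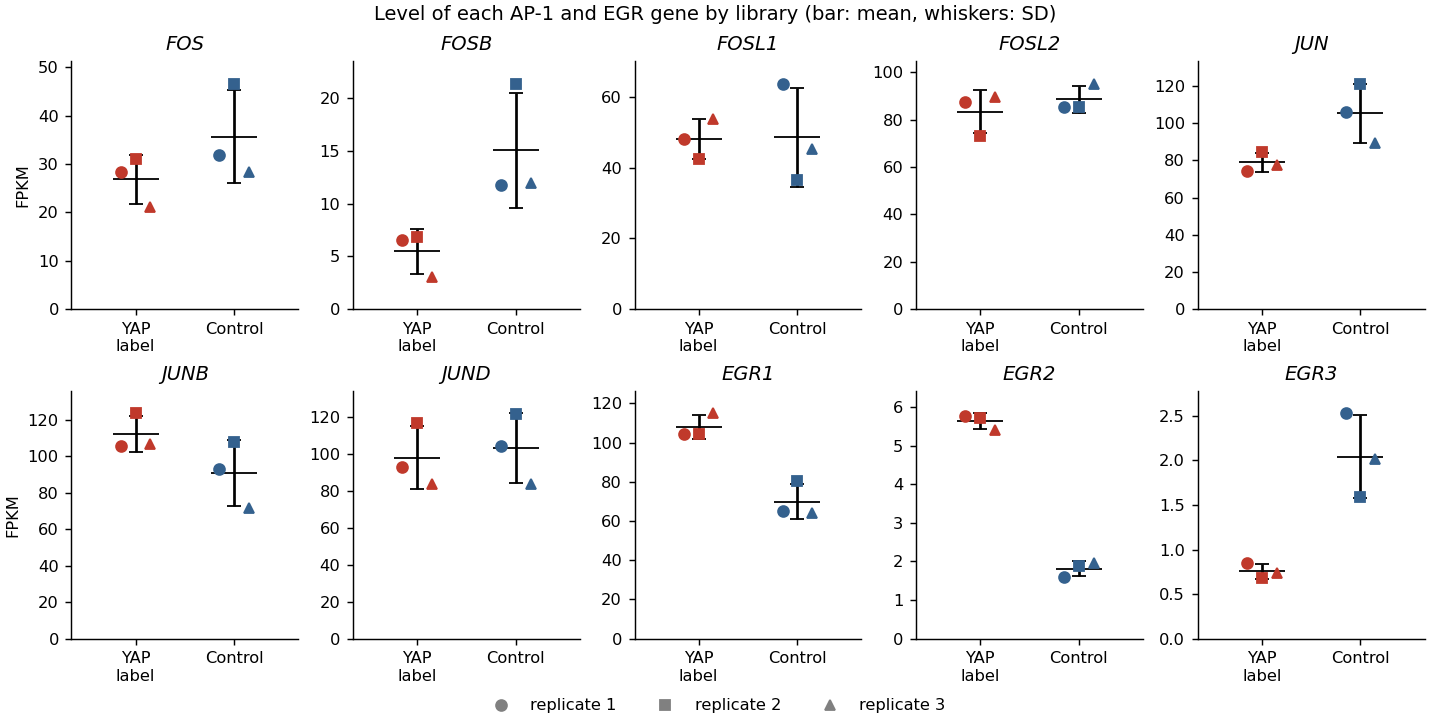
FPKM of each of the 10 genes in the 3 libraries labelled YAP (red, left) and the 3 Control libraries (blue, right), with the mean as a bar, the SD as whiskers and a symbol for the replicate number. The groups separate for FOSB, JUN, EGR1, EGR2 and EGR3 and overlap for the other 5, and the highest Control point of FOS and FOSB is replicate 2.

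The FOS family supplies the partners of JUN proteins. FOS and FOSB encode the rapidly induced, short-lived members with strong activation domains. FOSB had 6.52, 6.84 and 3.05 FPKM in the libraries labelled YAP, against 11.8, 21.4 and 12.0 FPKM in Control libraries. All 3 libraries labelled YAP lay below the lowest Control library, and the mean was 2.75-fold lower (log2 change -1.32, SE 0.25, 95% confidence interval -1.88 to -0.76, limma adjusted p = 0.0022). Only 1.79% of tested genes had a larger absolute log2 change. FOSB was also the most variable member within groups, and Control replicate 2 and YAP replicate 3 lay farthest out. Without Control replicate 2 the log2 change was -1.06 and without YAP replicate 3 it was -1.01, and limma adjusted p was 0.0045 and 0.0014 in these fits.

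FOS had 28.3, 31.0 and 21.1 FPKM in the libraries labelled YAP, against 31.9, 46.7 and 28.5 FPKM in Control libraries. The groups overlapped, since YAP replicate 2 lay above Control replicate 3, and the change did not pass (log2 change -0.39, SE 0.17, 95% confidence interval -0.76 to -0.01, limma adjusted p = 0.10). It passed without YAP replicate 2 (log2 change -0.50, limma adjusted p = 0.040) or without Control replicate 3 (-0.53, adjusted p = 0.039). It shrank to -0.18 without Control replicate 2 (limma adjusted p = 0.35) and to -0.23 without YAP replicate 3 (adjusted p = 0.30). The ratio of FOS to FOSB, which no scaling of a library can alter, was 4.34, 4.53 and 6.92 in the libraries labelled YAP and 2.70, 2.18 and 2.37 in Control libraries. FOSB was thus lower relative to FOS in every library labelled YAP, a ratio picked after its values were seen and not tested.

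FOSL1 (Fra-1) and FOSL2 (Fra-2) encode longer-lived FOS proteins that lack the strong activation domain of FOS. FOSL2 had 87.4, 73.1 and 89.5 FPKM in the libraries labelled YAP and 85.3, 85.3 and 95.2 FPKM in Control libraries. FOSL1 had 48.2, 42.5 and 53.7 FPKM in the libraries labelled YAP and 63.8, 36.5 and 45.5 FPKM in Control libraries. The groups overlapped for both genes. The log2 change of FOSL2 was -0.09 (95% confidence interval -0.29 to 0.11, limma adjusted p = 0.47). That of FOSL1 was 0.02 with a wider interval of -0.34 to 0.38 (adjusted p = 0.94), and its sign turned in 3 of the 6 fits without a library, to -0.17 without Control replicate 2, -0.01 without Control replicate 3 and -0.06 without YAP replicate 3. FOSL1 is often listed as a gene that YAP and TEAD activate, and within these intervals no change was detectable.

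By level, FOSL2 made up 51.3%, 47.6% and 53.5% of the summed FPKM of the FOS family in the libraries labelled YAP, against 44.2%, 44.9% and 52.6% in Control libraries. FOSL1 averaged 29.4% ± 2.38 in the libraries labelled YAP and 25.8% ± 6.96 in Control libraries (SD, n = 3 each). FOS contributed 16.5% ± 3.80 in the libraries labelled YAP and 19.0% ± 4.89 in Control libraries. FOSB fell outside the Control range in its share too, at 1.82% to 4.46% in the libraries labelled YAP and 6.12% to 11.3% in Control libraries. The summed FPKM of the family was 153 to 170 in the libraries labelled YAP and 181 to 193 in Control libraries. These sums did not overlap as deposited, but unlike the shares they depend on library scaling. The median-of-ratios factors were 0.964 for YAP replicate 1 and 1.039 for Control replicate 3. Division by them would place the sum of YAP replicate 1 above that of Control replicate 3. FOSL2 was thus the largest share in all 6 libraries and FOSL1 the next in 5 of them, while in Control replicate 2 FOS (24.6%) stood above FOSL1 (19.2%).

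JUN proteins are the main partners of FOS proteins in AP-1, and JUNB and JUND are known to be weaker activators than JUN at many sites. JUN had 74.4, 84.6 and 77.7 FPKM in the libraries labelled YAP, against 106, 121 and 89.2 FPKM in Control libraries. As deposited, the highest library labelled YAP lay below the lowest Control library (log2 change -0.40, SE 0.11, 95% confidence interval -0.64 to -0.17, limma adjusted p = 0.013). Division by the median-of-ratios factors, 0.972 for YAP replicate 2 and 1.039 for Control replicate 3, would reverse the order of these 2 libraries. JUN did not pass with median-of-ratios scaling (log2 change -0.32, adjusted p by limma 0.052), with limma-voom on the recovered reads (-0.31, adjusted p = 0.057) and without YAP replicate 1 (-0.36, adjusted p = 0.061) or Control replicate 1 (-0.39, adjusted p = 0.051).

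JUNB had 106, 123 and 107 FPKM in the libraries labelled YAP, against 92.9, 108 and 71.7 FPKM in Control libraries. Control replicate 2 lay within the range of the libraries labelled YAP, and the change did not pass (log2 change 0.32, SE 0.13, 95% confidence interval 0.03 to 0.60, limma adjusted p = 0.077). JUNB passed with median-of-ratios scaling (0.40, adjusted p by limma 0.045), after quantile normalization (0.39, adjusted p = 0.023), with limma-voom (0.42, adjusted p = 0.035) and without Control replicate 2 (0.45, adjusted p = 0.014). It was smaller without Control replicate 3 (0.16, limma adjusted p = 0.25) and without YAP replicate 2 (0.25, adjusted p = 0.18). JUND, which is expressed more steadily than its relatives in many cells, had 93.2, 117 and 84.1 FPKM in the libraries labelled YAP and 105, 122 and 83.9 FPKM in Control libraries. The groups overlapped across nearly their whole range (log2 change -0.07, 95% confidence interval -0.38 to 0.24, limma adjusted p = 0.71), and this small difference was positive with median-of-ratios scaling (0.01) and without YAP replicate 3 (0.03) or Control replicate 2 (0.05).

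JUNB and JUN differed in direction, and so did their balance. The ratio of JUNB to JUN was 1.42, 1.46 and 1.38 in the libraries labelled YAP, against 0.875, 0.891 and 0.803 in Control libraries. JUNB exceeded JUN in each library labelled YAP and in no Control library, and the ratio is free of library scaling. JUNB supplied 38.8% ± 0.91 of the summed FPKM of the JUN family in the libraries labelled YAP and 30.2% ± 0.81 in Control libraries, and JUN 27.4% ± 1.44 in the libraries labelled YAP and 35.3% ± 1.00 in Control libraries (SD, n = 3 each). The share of JUND was 31.3% to 36.0% in the libraries labelled YAP, a range that held its Control values of 34.3% to 34.7%. The ratio was chosen after its values were seen and was not tested. The summed FPKM of the family overlapped between groups, at 269 to 325 in the libraries labelled YAP and 245 to 350 in Control libraries.

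**Figure D2:**
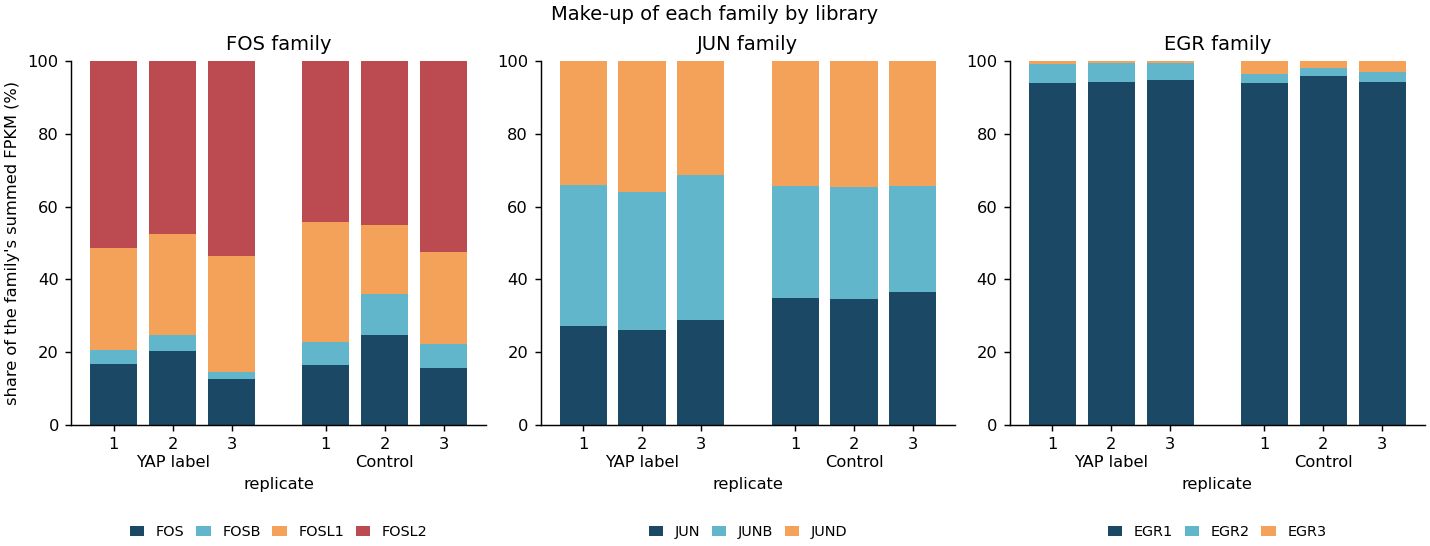
Share of each gene (colour) in the summed FPKM of its family, in percent, for the 3 libraries labelled YAP (left of each panel) and the 3 Control libraries (right). JUNB holds 38.0% to 39.8% of the JUN family in the libraries labelled YAP and 29.3% to 30.8% in Control libraries, FOSB a smaller part of the FOS family in the libraries labelled YAP, and EGR1 over 94% of the EGR family in all 6 libraries.

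EGR1 encodes the most widely induced EGR factor, a sensor of growth factor and stress signals. EGR1 had 105, 104 and 115 FPKM in the libraries labelled YAP, against 65.1, 80.5 and 64.3 FPKM in Control libraries. All 3 libraries labelled YAP lay above the highest Control library, and the mean was 1.54-fold higher (log2 change 0.62, SE 0.10, 95% confidence interval 0.41 to 0.84, limma adjusted p = 5.1e-04). The value stayed between 0.57 and 0.73, past the threshold, when each library was left out in turn. Each EGR1 value rested on 6998 to 13433 reads.

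EGR2 encodes a factor known to raise CEBPB early in adipogenesis in mouse preadipocytes. EGR2 had 5.78, 5.73 and 5.41 FPKM in the libraries labelled YAP, against 1.59, 1.89 and 1.95 FPKM in Control libraries. The groups lay far apart, with an SD of 0.198 FPKM in the libraries labelled YAP and 0.194 FPKM in Control libraries. The mean was 3.12-fold higher (log2 change 1.24, SE 0.09, limma adjusted p = 1.7e-06). These values rested on 531 to 608 reads per library with the YAP label and 158 to 192 per Control library. A larger absolute log2 change was seen in 2.09% of tested genes.

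EGR3, known from muscle spindles and T cells, had the lowest mean level of the 10 members over all 6 libraries. EGR3 had 0.848, 0.676 and 0.741 FPKM in the libraries labelled YAP, against 2.53, 1.59 and 2.01 FPKM in Control libraries. These values rested on 97 to 138 reads per library labelled YAP and 237 to 389 reads per Control library, well above the detection floor of 3 reads. The groups did not overlap, and the mean was 2.71-fold lower (log2 change -0.78, SE 0.12, limma adjusted p = 3.9e-04). Since EGR3 entered the test through its Control values alone, the fit over all genes above 0 FPKM in any library is the one that does not select on them, and there limma adjusted p was 0.0053. With a pseudocount of 0.1 the log2 change was -1.31.

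EGR2 and EGR3 moved in opposite directions by similar factors. Their ratio was 6.81, 8.47 and 7.31 in the libraries labelled YAP, against 0.628, 1.19 and 0.970 in Control libraries. In Control libraries the 2 genes thus had close means, 1.81 FPKM for EGR2 and 2.04 FPKM for EGR3. Their values overlapped there, and the ratio varied between libraries. EGR2 was well above EGR3 in each library labelled YAP. This ratio, too, was chosen after its values were seen and was not tested. EGR1 made up 94.0% to 94.9% of the family's summed FPKM in the libraries labelled YAP and 94.1% to 95.9% in Control libraries, so the sum of 111 to 121 FPKM with the YAP label and 68.2 to 84.0 FPKM in Control libraries followed EGR1. EGR4, a further gene of the family and no member here, had 0 to 3 reads per library.

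**Figure D3:**
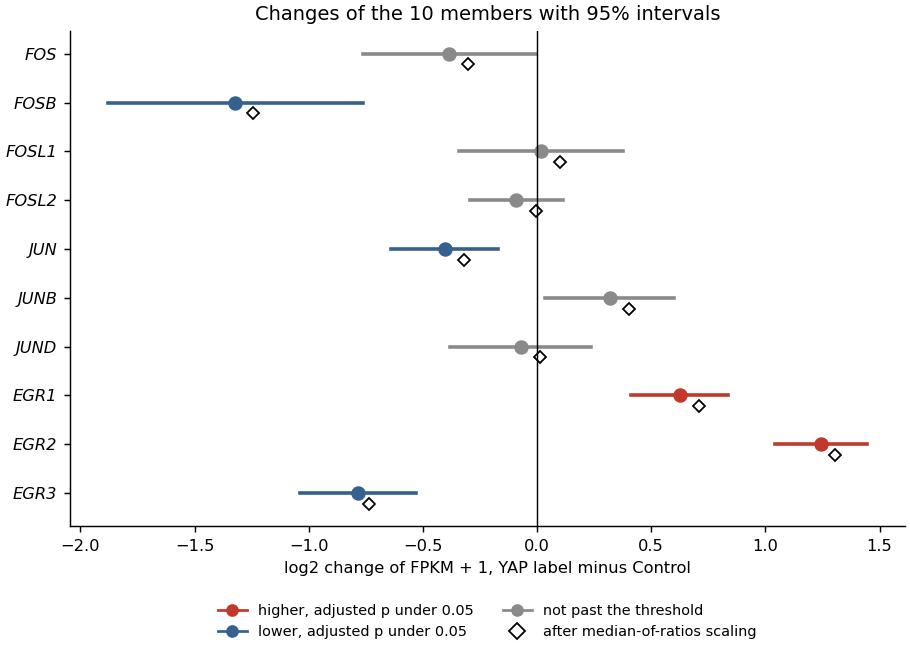
Log2 change of FPKM + 1 (YAP label minus Control) for each of the 10 genes, with the 95% confidence interval from limma as a line. Open diamonds give the change after median-of-ratios scaling, which moved every gene slightly upward, took JUN to adjusted p = 0.052 and JUNB to adjusted p = 0.045, and left FOSB, EGR1, EGR2 and EGR3 on the same side of the threshold.

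In order of mean FPKM, the libraries labelled YAP ran JUNB, EGR1, JUND, FOSL2, JUN, FOSL1, FOS, EGR2, FOSB and EGR3. Control libraries ran JUN, JUND, JUNB, FOSL2, EGR1, FOSL1, FOS, FOSB, EGR3 and EGR2. In the libraries labelled YAP, neighbours among the first 5 places, from 112 to 78.9 FPKM, overlapped in their 3 values, as did EGR2 and FOSB. Among the 5, JUNB (106 to 123 FPKM) and EGR1 (104 to 115) lay wholly above FOSL2 (73.1 to 89.5) and JUN (74.4 to 84.6). In Control libraries the first 4 places, from 105 to 88.6 FPKM, FOSL1 and FOS, and EGR3 and EGR2 were not separated. EGR1 stood below FOSL2 without overlap in Control libraries and overlapped JUNB and JUND in the libraries labelled YAP. JUN, JUNB, JUND, FOSL2 and EGR1 each had a higher mean FPKM than 92.6% to 93.8% of tested genes, FOSB than 51.8% and EGR3 than 5.10%.

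Within groups, several members were high or low in the same library. FOS and FOSB were highest in Control replicate 2, at 1.31 and 1.42 times their Control mean, and lowest in YAP replicate 3, at 0.79 and 0.56 times the mean of the libraries labelled YAP. FOSL1 ran the other way in both of these libraries, at 0.75 and 1.12 times its group mean. JUN, JUNB and JUND were all highest in Control replicate 2 (1.15 to 1.19 times the Control mean) and all lowest in Control replicate 3 (0.79 to 0.85 times). Control replicate 2 was the highest Control library for 6 of the 10 members and for 12 of 20 other immediate early genes, against 25.6% of all tested genes. YAP replicate 3 was the lowest library labelled YAP for 4 of the 10 members, near the 36.8% of all tested genes. The coefficient of variation among Control libraries was 36.4% for FOSB, 28.7% for FOSL1, 27.1% for FOS and 10.7% for EGR2, where the median tested gene had 9.83%. Among the libraries labelled YAP it was 38.4% for FOSB, 19.1% for FOS and 3.50% for EGR2, with a median of 7.59%.

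**Figure D4:**
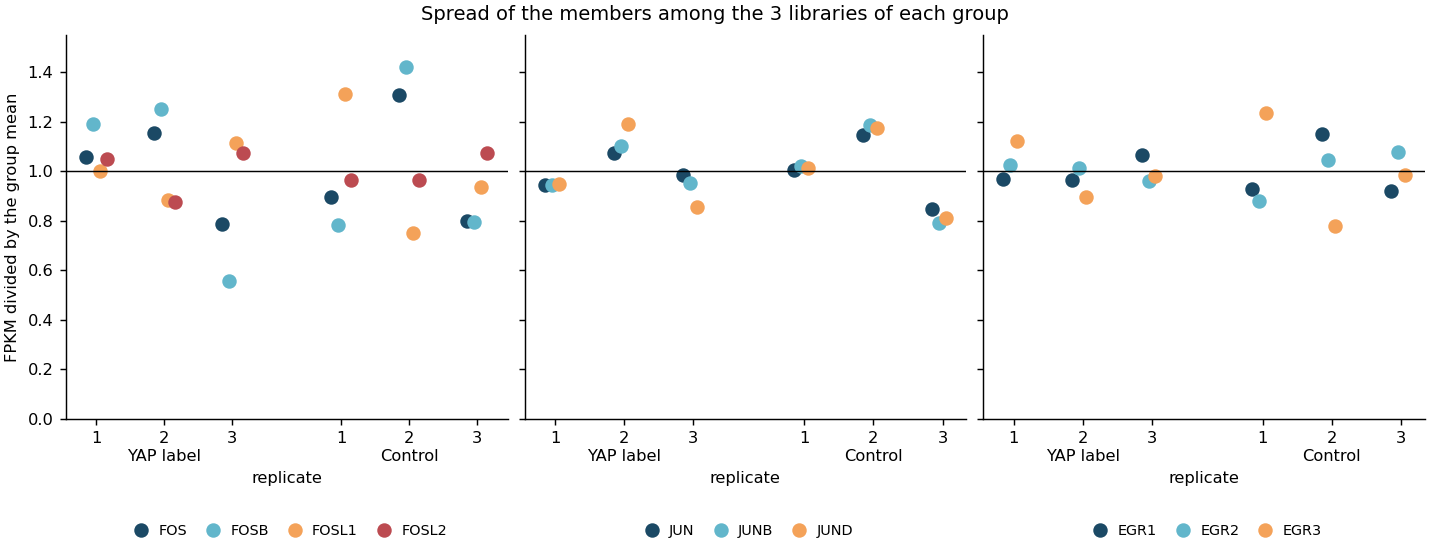
FPKM of each gene divided by the mean of its own group, for the 3 libraries labelled YAP (left of each panel) and the 3 Control libraries (right). FOS and FOSB lie at 1.31 and 1.42 in Control replicate 2 and at 0.79 and 0.56 in YAP replicate 3, and the 3 JUN genes lie close to each other in each Control library.

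Other immediate early genes moved in both directions. Of 20 tested, 8 rose and 4 fell, where 12.9% of all tested genes rose and 23.0% fell. The median log2 change of the 20 was 0.01, against -0.10 over all tested genes. The orphan nuclear receptor gene NR4A2 rose 4.26-fold, to 35.8 ± 0.955 FPKM in the libraries labelled YAP against 8.41 ± 1.62 FPKM in Control libraries (SD, n = 3 each, limma adjusted p = 2.5e-07). Its relative NR4A1 rose to 12.6 ± 0.72 FPKM, against 5.13 ± 1.09 FPKM in Control libraries. CYR61, a secreted matrix protein and YAP target, rose to 595 ± 36.3 FPKM, against 320 ± 41.9 FPKM in Control libraries. CTGF, another YAP target of this list, did not pass (log2 change 0.09, limma adjusted p = 0.46). It had 255 ± 3.42 FPKM in the libraries labelled YAP and 241 ± 25.3 FPKM in Control libraries. KLF10, a zinc finger factor induced by TGF-beta, fell to 15.4 ± 0.49 FPKM, against 26.8 ± 1.48 FPKM in Control libraries. EGR4, NR4A3 and ARC were below the filter.

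Among other bZIP genes whose proteins can pair with AP-1 subunits, 2 of 9 tested rose and 1 fell (median log2 change 0.02). Over all tested genes, 12.9% rose and 23.0% fell. JDP2, which encodes a JUN dimerization partner that represses AP-1, rose to 22.8 ± 1.24 FPKM, against 14.1 ± 1.60 FPKM in Control libraries (limma adjusted p = 3.1e-04). The small MAF gene MAFF rose to 20.4 ± 2.82 FPKM, against 11.3 ± 1.46 FPKM in Control libraries. JDP2 was also the tested gene whose pattern over the 6 libraries lay nearest to that of EGR1, the most abundant EGR member, with a root mean square difference of 0.07 between log2 values centred on each gene's mean, against a median of 0.40 over tested genes. GLB1L (0.07) and ARNTL2 (0.08) followed. ARNTL2 passed the filter through the libraries labelled YAP alone, and its nearness rests on the pseudocount of 1, since with 0.1 its log2 change was 1.48 and that of EGR1 0.63. Nearest to JUNB were CRYBB1 (0.04), IFFO1 (0.05) and PRRG2 (0.06, median 0.31), and nearest to FOSL2 were STK39 (0.03), CHMP1B (0.03) and LCOR (0.04, median 0.18). LCOR is a low gene, and with a pseudocount of 0.1 its log2 change was -0.17 and that of FOSL2 -0.09. Genes picked as nearest among all tested genes lie below these medians by selection, so the gap shows no special likeness.

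Most transcripts of the upstream factors did not pass. Of 17 tested genes for SRF, its ternary complex factors and coactivators, CREB1 and MAP kinases, 2 rose and 2 fell (median log2 change -0.10). Shares over all tested genes were 12.9% higher and 23.0% lower. ELK3, a ternary complex factor that can repress FOS in human and mouse cells, fell to 41.5 ± 3.22 FPKM, against 58.3 ± 6.81 FPKM in Control libraries (limma adjusted p = 0.0031). MAPK14, the p38 alpha kinase, rose to 20.2 ± 0.11 FPKM, against 16.1 ± 0.78 FPKM in Control libraries. MKL1, an actin-regulated coactivator of SRF, rose to 19.2 ± 1.80 FPKM, against 15.5 ± 1.35 FPKM in Control libraries, and MAP2K4, a kinase of the JNK and p38 branches, fell to 10.3 ± 0.57 FPKM, against 12.8 ± 0.93 FPKM. These last 2 calls were close to the threshold (limma adjusted p = 0.033 and 0.026). MAP2K4 did not pass with median-of-ratios scaling (limma adjusted p = 0.093), quantile normalization (0.061) or limma-voom (0.11), nor without YAP replicate 1 (0.092), YAP replicate 2 (0.089) or Control replicate 3 (0.067). MKL1 did not pass with no filter on low values (limma adjusted p = 0.063) or without YAP replicate 1 (0.084), YAP replicate 2 (0.12), Control replicate 1 (0.077) or Control replicate 3 (0.089), and MAPK14 did not without YAP replicate 1 (0.059).

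The next group holds feedback genes that restrain this pathway. Of 13 tested genes for MAP kinase phosphatases, Sprouty and SPRED proteins and the NAB corepressors of EGR factors, 3 rose and 7 fell. Their median log2 change was -0.39, or -0.31 after median-of-ratios scaling with the same counts. Among all tested genes 12.9% rose and 23.0% fell, or 15.8% and 14.0% after that scaling. DUSP5 and DUSP6, phosphatases of ERK that ERK signalling induces, showed the smallest adjusted p. DUSP5 fell to 3.52 ± 0.34 FPKM, against 11.3 ± 2.08 FPKM in Control libraries (3.20-fold, limma adjusted p = 5.2e-06), and DUSP6 to 10.1 ± 1.05 FPKM, against 25.1 ± 3.52 FPKM (2.49-fold, adjusted p = 7.6e-06). SPRY1, an inhibitor of receptor tyrosine kinase signalling, rose to 2.05 ± 0.28 FPKM, against 0.826 ± 0.0722 FPKM in Control libraries, and entered the test through the libraries labelled YAP alone. The NAB genes parted ways. NAB1 rose to 12.0 ± 0.74 FPKM, against 6.86 ± 0.97 FPKM in Control libraries (limma adjusted p = 2.7e-04), while NAB2, which EGR factors are known to induce and which is named here after its values were seen, fell to 27.3 ± 1.29 FPKM, against 40.2 ± 3.05 FPKM (adjusted p = 4.9e-04).

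**Figure D5:**
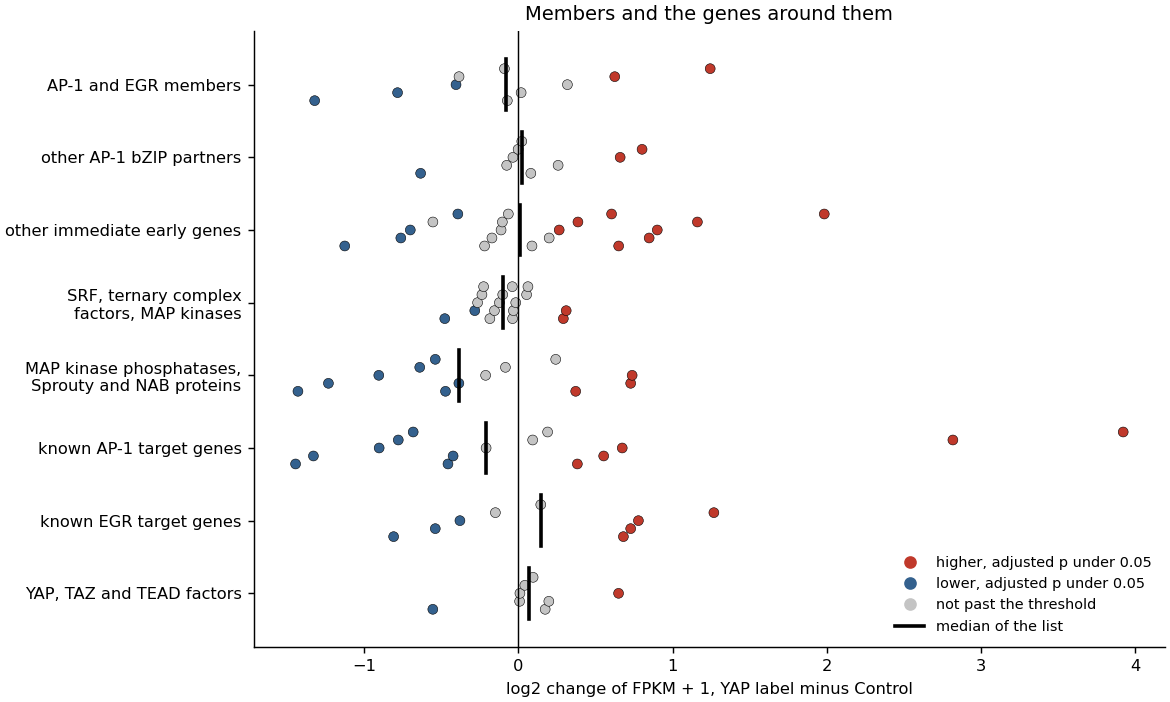
Log2 change of FPKM + 1 (YAP label minus Control) of the 10 members and of the tested genes of 7 lists around them, each point a gene, coloured by its call, with the list median as a black bar. Feedback genes have the lowest median (-0.39) and known EGR target genes the highest (0.14), and each list holds genes called in both directions.

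Genes known as AP-1 targets did not move one way. Of 15 tested, 5 rose and 7 fell (median log2 change -0.21), where 12.9% of all tested genes rose and 23.0% fell. The cytokine genes IL6 and CXCL8, which also answer to NF-kB, rose most: IL6 to 29.9 ± 3.95 FPKM, against 1.03 ± 0.07 FPKM in Control libraries, and CXCL8 to 111 ± 14.9 FPKM, against 15.3 ± 5.36 FPKM. CCND1, the cyclin D1 gene that JUN activates in mouse fibroblasts, fell to 32.3 ± 0.74 FPKM, against 83.4 ± 13.7 FPKM in Control libraries (limma adjusted p = 2.9e-06). HMGA1, a chromatin architecture protein, fell to 67.4 ± 5.22 FPKM, against 187 ± 32.5 FPKM in Control libraries.

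Known EGR targets were also mixed, with 4 of 9 higher and 3 lower (median log2 change 0.14). Over all tested genes these shares were 12.9% and 23.0%. THBS1, an adhesive matrix glycoprotein, rose to 721 ± 121 FPKM, against 298 ± 40.0 FPKM in Control libraries, and VEGFA, an angiogenic growth factor, rose to 148 ± 3.68 FPKM, against 91.8 ± 4.78 FPKM. TGFB1 fell to 21.9 ± 0.76 FPKM, against 39.1 ± 3.69 FPKM in Control libraries (limma adjusted p = 3.3e-05). NAB1 and NAB2, listed here too, moved in opposite directions as given above.

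Among 8 YAP, TAZ and TEAD genes, 1 rose and 1 fell (median log2 change 0.07), where 12.9% of all tested genes rose and 23.0% fell. The TEAD genes TEAD1 to TEAD4, which encode the factors that hold YAP on DNA, had adjusted p of 0.092 to 0.94 by limma, and with median-of-ratios scaling TEAD3 passed (adjusted p = 0.032). WWTR1 fell to 21.4 ± 1.98 FPKM, against 32.0 ± 3.38 FPKM in Control libraries (limma adjusted p = 0.0013), and VGLL3, a cofactor that competes for TEAD binding, rose to 50.2 ± 7.70 FPKM, against 31.8 ± 5.98 FPKM in Control libraries (adjusted p = 0.0037).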

How the data were processed

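RNA from 6 libraries, 3 labelled YAP and 3 Control, was analysed. Libraries were made from total RNA with the VAHTS Universal V6 kit, per the labels' protocols. Per the submitters' processing notes, fastp, HISAT2 and HTSeq were used, with versions, genome build, annotation, strand setting and treatment of multiply mapped reads not given in the sources used here. No coordinates are therefore printed, and overlapping or near-identical genes carry that uncertainty. Values were deposited by the authors as FPKM, in a separate table for each group, 2 in all. The table with the YAP columns held 6 other columns of per-sample values, headed TAZ or pcDNA, that correspond to no labelled sample, and these were not used.

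Whole reads were recovered from the steps between FPKM values: all 15958 genes above 0 gave whole reads within 0.05 reads in all 6 libraries, at totals of 32593380 to 37131015 fragments. A floor of 3 reads, for a gene of the median length (2848 bases), equals 0.028 to 0.032 FPKM, and covers counting error alone. Replicates differed beyond counting noise (chi-square per gene 7.92 to 31.9).

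Values were compared as log2(FPKM + 1) for genes that reached 1 FPKM in 3 or more libraries, with limma 3.58.1 in R 4.3.3 (variance trend, two-sided, Benjamini-Hochberg over all 10761 tested genes, threshold 0.05). Permutation tests used scipy 1.17.1. The limma and limma-voom fits were tested on simulated reads, and the other steps were not. The simulation gave all genes the same spread beyond counting noise and no shared deviations between libraries, unlike these data. The members and the 7 gene lists were chosen with earlier results of these data known. Named genes were the 10 members, YAP1, WWTR1, up to 4 genes per list with the smallest adjusted p, and the 3 genes nearest in pattern to the most abundant member of each family. TEAD1 to TEAD4, markers and low genes were named outside this rule, as were NAB2 and CTGF. Of the listed genes, BATF and FABP4 were not analysed here, and 1 gene that the rule names is not reported here. Promoter motifs were planned and not analysed here. Alternatives were a pseudocount of 0.1, no filter, a filter of 0.1 FPKM, median-of-ratios scaling, no variance trend, a block on replicate number, quantile normalization, limma-voom on the recovered reads and leaving out each library.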

Additional observations from a re-analysis of the deposited data

How the results depend on the processing

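EGR1, EGR2 and FOSB kept their direction and call in all alternatives, and EGR3 in all that tested it; without any Control library it fell below the filter. Left out in turn, single libraries gave log2 changes of 0.57 to 0.73 for EGR1, 1.19 to 1.28 for EGR2, -1.49 to -1.01 for FOSB, -0.82 to -0.75 for EGR3, -0.53 to -0.18 for FOS, -0.17 to 0.23 for FOSL1, -0.14 to 0.0001 for FOSL2, -0.52 to -0.30 for JUN, 0.16 to 0.45 for JUNB and -0.21 to 0.052 for JUND. JUN lost its call after median-of-ratios scaling (-0.32) and with limma-voom (-0.31). JUNB gained one with these (0.40 and 0.42) and with quantile normalization (0.39). Small changes turned sign for JUND (0.013 with median-of-ratios, 0.0268 with limma-voom), FOSL2 (0.0082 with limma-voom), CHMP1B (0.0143 with limma-voom) and STK39 (0.0055 with median-of-ratios, 0.0248 with limma-voom). YAP1 ran from -0.0282 to 0.0545 without a library and STK39 from -0.13 to 0.0391. The cause was not tested. Members called without a library ranged from 3 of 9 tested (without Control replicate 1) to 6 of 10 (without YAP replicate 2). Those higher ranged from 2 to 3 and those lower from 1 to 4. EGR3 was not tested in the fits without a Control library, which lowers their counts. Genes called in all ranged from 2290 (without YAP replicate 1) to 3515, with 909 to 1326 higher and 1381 to 2189 lower, against 3868 with all libraries (1392 higher, 2476 lower). Lower genes numbered 1505 after median-of-ratios scaling and 1393 with limma-voom, with 1706 and 1817 higher. Same-numbered replicates deviated together for numbers 2 and 3 (correlation across genes 0.59 and 0.60) but not 1 (-0.02), and not every library correlated best with its own number, so the numbers were not taken as pairs. With the replicate block 7 members were called, JUNB (0.32, limma adjusted p = 0.0066) and FOS (-0.39, adjusted p = 0.0026) among them, where 51.8% of all tested genes passed, and 3745 genes were lower. Over 33 other named genes, 431 of 456 alternative values kept direction and call.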
